A study of Saccharomyces cerevisiae with 40 samples.

Results

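The 10 genes described here build, break down or move storage sugars and glycerol in the yeast Saccharomyces cerevisiae. They were chosen by name, as every probe set of the deposited value table whose only gene symbol was on a list of 10, out of 5656 genes with such a probe set. Each gene had 1 such probe set, and all 10 were among the 7420 of 9275 probe sets, controls left out, that passed the filter on dim probe sets. The study followed RNA levels over a time course in which NMD2, a gene of nonsense-mediated mRNA decay, was switched on from a plasmid by galactose. Nonsense-mediated decay is the pathway that degrades mRNAs with a premature stop codon. The 40 arrays fell into 10 groups of 4: GAL-NMD2 at 0, 10, 20, 40 and 60 min, and nmd2D at the same times. GAL-NMD2 cells held NMD2 on a plasmid, driven by the GAL1 promoter, which galactose induces, and nmd2D cells held the empty URA3 vector. Both were the strain HFY1400, in which the chromosomal NMD2 gene is disrupted by HIS3, so the control cells lacked the pathway at every time. Cells grew at 30°C in synthetic medium without uracil. The labels conflict on the sugar, because the series design names raffinose with galactose added at the start and the growth protocol names galactose. Both strains therefore went through the same sugar shift, as far as the design text gives it, and only the difference between strains bears on NMD2.

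Trehalose and glycogen are both made from UDP-glucose. The trehalose synthase complex holds the synthase Tps1 (YBR126C), the phosphatase Tps2 (YDR074W) and the regulatory subunit Tsl1 (YML100W), and the neutral trehalase Nth1 (YDR001C) cleaves the sugar again. Glycogen is elongated by the synthases Gsy1 (YFR015C) and Gsy2 (YLR258W), branched by Glc3 (YEL011W) and degraded by the phosphorylase Gph1 (YPR160W). Glycerol, the main compatible solute of yeast under osmotic stress, is made from a glycolytic intermediate by way of the glycerol-phosphate dehydrogenase Gpd1 (YDL022W), and the plasma membrane symporter Stl1 (YDR536W) takes it up together with protons. Several of these genes are known targets of the stress factors Msn2 and Msn4, which protein kinase A holds in check, and GPD1 and STL1 are known targets of the osmotic stress kinase Hog1.

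Values are the authors' signal intensities from the MAS5 algorithm, whose trimmed mean lay between 250.155 and 250.222 on every array, so they were already scaled to one another. An intensity is read within a probe set across arrays, not between genes. Changes are differences of log2(intensity + 16) with standard errors (SE), and a call is a Benjamini-Hochberg adjusted p under 0.05 over all 7420 probe sets in limma. The median intensity of an array lay between 61.2 and 86. At 60 min it was 65.6 ± 3.74 in GAL-NMD2, against 81.7 ± 3.18 in nmd2D (SD, n = 4 each), and strain differences at late times are also given under other scalings where these change a call. The ratio of 3′ to 5′ actin signal, a measure of RNA integrity, was 2.26 to 2.95 in the arrays of replicate 3 and 1.38 to 2.14 in those of replicates 1, 2 and 4. The NMD2 probe set read 1654 ± 212 at 60 min, against 1038 ± 177 at 0 min, in GAL-NMD2. In nmd2D it read 889 ± 132 at 60 min and 895 ± 34.9 at 0 min (SD, n = 4 each), so it gave signal in the disrupted strain too. In GAL-NMD2, the replicate 2 array at 20 min stood apart, with the lowest correlation of deviations (r = 0.18, with its own 0 min array) among the same-numbered arrays compared. Arrays of 1 replicate number deviated together. Results are therefore also given from a fit with the replicate number as a block, though not for every call that it changed.

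All 10 genes were lower at 60 min than at 0 min in both strains, by group means on the log2 scale. With the strains averaged, 9 of the 10 fell at 60 min, where 6.81% of all probe sets tested were called lower. The median change of the 10 was -0.91, against -0.03 over all probe sets. TPS1 was the exception, with -0.39 (SE 0.16, adjusted p = 0.129 in limma), and it was called too with the replicate block (adjusted p = 0.0016). With that block 10 of 10 fell, where the share of all probe sets called lower was 16.6%. In 9 of the 10 genes the value at 60 min was under that at 0 min in 8 of 8 pairs of arrays with the same strain and replicate number. Such a uniform direction was found in 5.34% of all probe sets. In TPS1 it held for 7 of 8 pairs. The lowest count with 1 replicate left out was 5 of 10, without replicate 1 of nmd2D. The 10 genes were chosen with earlier results of these data known. Their contrast with all probe sets may follow in part from that choice, which was not tested.

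**Figure D1:**
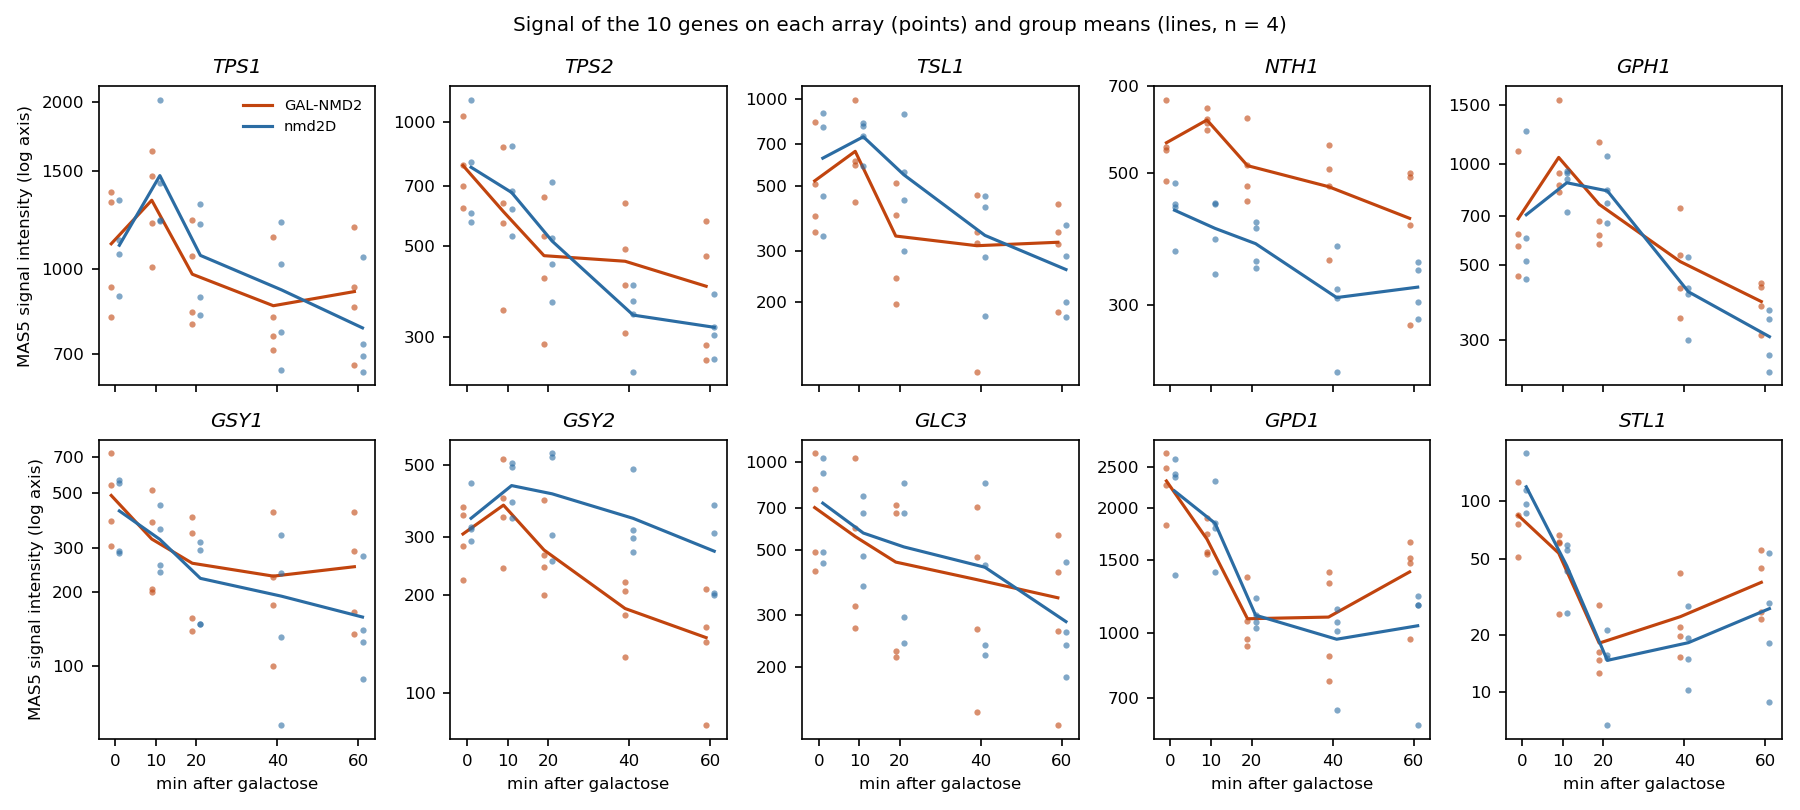
MAS5 signal intensity (log axis) of the 10 genes at 0, 10, 20, 40 and 60 min, in GAL-NMD2 and nmd2D. Points are arrays (4 per group), shifted slightly sideways, and lines join group means. STL1 and GPD1 are lower from 20 min on, the other genes are lowest at 40 or 60 min, and the group means of NTH1 are higher in GAL-NMD2 at each time.

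Calls came at different times for different genes. With the strains averaged, 0 of 10 genes were called lower at 10 min (0.0135% of all probe sets), 2 at 20 min (0.243%) and 5 at 40 min (5.4%). At 10 min limma gave 4 genes an unadjusted p under 0.05, in both directions. GPD1 (-0.34) and STL1 (-0.82) were lower, and TPS1 (0.33) and GPH1 (0.52) were higher. Without replicate 1 or 3 of GAL-NMD2 or replicate 2 of nmd2D the count at 40 min was 3. The fit with the replicate block called 1, 5 and 10 genes lower at 10, 20 and 40 min, where 0.526%, 3.05% and 15.3% of all probe sets were called lower. The median change of the 10 genes was -0.14, -0.52 and -0.84 at these times, against -0.03, -0.05 and -0.06 over all probe sets. These comparisons share the 0 min arrays, so a deviation of those arrays enters each of them.

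STL1, the glycerol symporter gene, had the largest mean change of the 10 genes at 20 min. In GAL-NMD2 its signal was 28.8, 14.8, 16.2 and 12.6 at 20 min, against 126.2, 75.8, 51.2 and 85.3 at 0 min. In nmd2D it was 6.7, 21.3, 15.1 and 15.7 at 20 min, against 87.5, 96.6, 178.9 and 114.6 at 0 min. The 4 arrays at 20 min lay below all 4 arrays at 0 min in each strain. The mean change of both strains at 20 min was -1.83 (SE 0.2), a 3.54-fold lower value on the scale with the pseudocount of 16, with an adjusted p of 7.75e-08 in limma. The lowest group mean in each strain was that at 20 min. Group means in GAL-NMD2 were 84.6, 53.6, 18.1, 24.9 and 37.7 at 0, 10, 20, 40 and 60 min. In nmd2D they were 119, 46.0, 14.7, 18.2 and 27.5 at the same times. The mean change was smaller at 60 min (-1.30) than at 20 min (-1.83), a difference that was not tested. At 10 min STL1 was lower in 7 of 8 pairs, with a mean change of -0.82 (SE 0.2) that missed the threshold (adjusted p = 0.0736 in limma) and passed it with the replicate block (adjusted p = 0.0168). Such values are near the bottom of the signal range, and detection calls were not used. With a pseudocount of 1 in place of 16, the mean change at 20 min was -2.57.

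GPD1, whose enzyme makes the glycerol precursor, was called lower at 20, 40 and 60 min with the strains averaged. At 20 min its signal was 969.6, 932.6, 1068 and 1363 in GAL-NMD2, against 1819, 2266, 2487 and 2701 at 0 min. In nmd2D it was 1108, 1216, 1031 and 1064 at 20 min, against 1381, 2373, 2617 and 2403 at 0 min. Each array at 20 min was below every array at 0 min of the same strain, and the lowest array at 0 min was replicate 1 in both strains. The mean change was -1.01 (SE 0.16, adjusted p = 0.000175 in limma) at 20 min, -1.13 (SE 0.16, adjusted p = 1.18e-05) at 40 min and -0.90 (SE 0.16, adjusted p = 0.000226) at 60 min. STL1 and GPD1 were the 2 genes called at 20 min without the block, and both stayed called without the replicate 2 array of GAL-NMD2 at that time, with mean changes of -1.80 and -0.98.

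**Figure D2:**
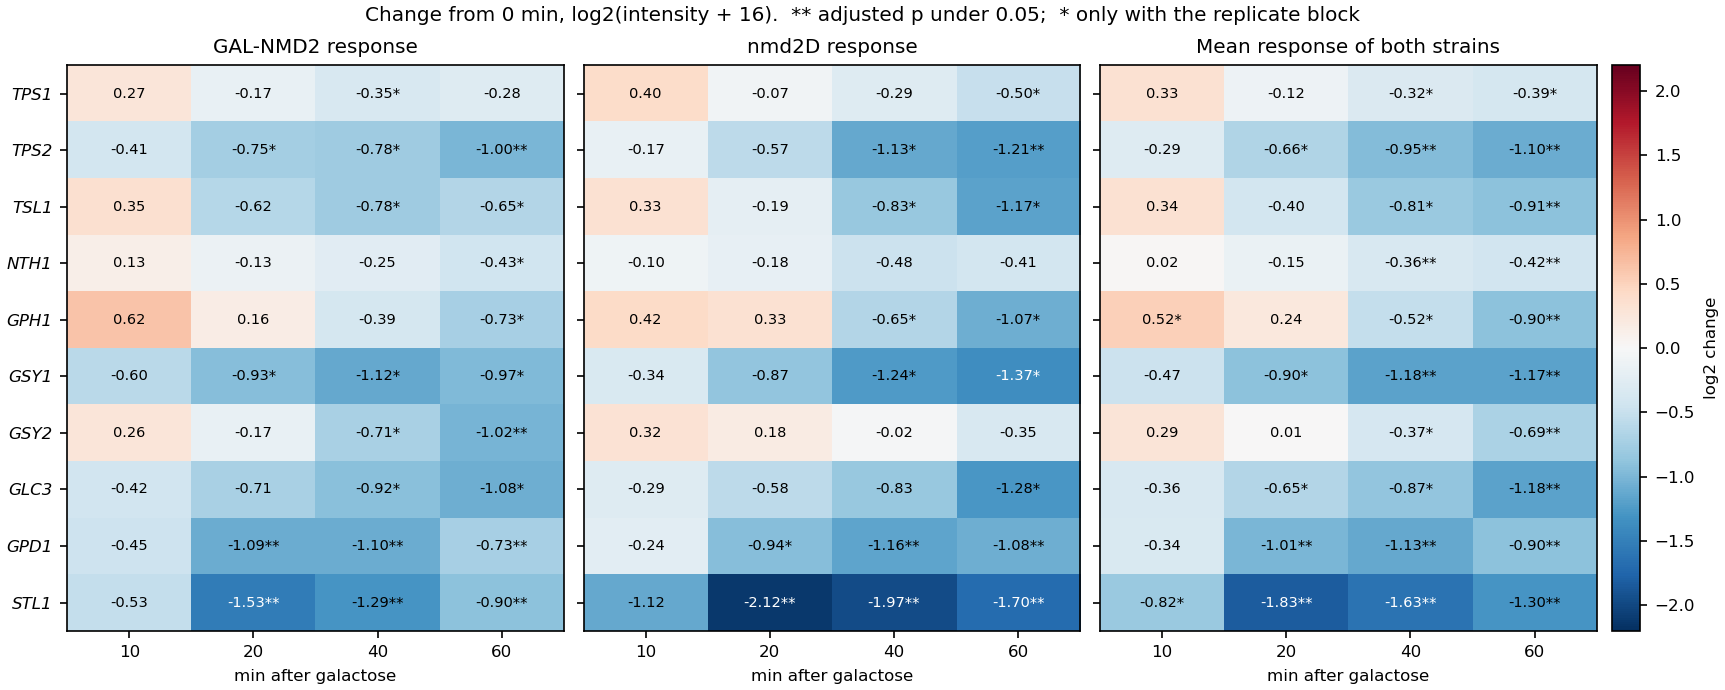
Change from 0 min (log2 of intensity + 16) of the 10 genes at 10, 20, 40 and 60 min in GAL-NMD2, in nmd2D and averaged over the strains; blue is lower and red higher, and one scale serves all panels. Averaged over the strains, STL1 is lowest at 20 min (-1.83) and GPH1 is higher at 10 min (0.52) and lower at 60 min (-0.90).

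Of the trehalose synthesis genes, TPS2 changed most at 60 min. Its signal at 60 min was 286.3, 471.5, 263.2 and 575.0 in GAL-NMD2, against 788.6, 620.0, 699.0 and 1034 at 0 min. In nmd2D it was 264.8, 316.9, 303.7 and 382.5 at 60 min, against 800.5, 572.3, 601.0 and 1136 at 0 min. The groups did not overlap in either strain. The mean change was -0.95 (SE 0.2, adjusted p = 0.0021 in limma) at 40 min and -1.10 (SE 0.2, adjusted p = 0.000264) at 60 min. With the replicate block TPS2 was also called at 20 min, with a mean change of -0.66 (adjusted p = 0.00149 in limma, against 0.172 without the block).

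TPS1 and TSL1, which encode the other subunits of the complex among the 10 genes, had their highest means at 10 min in both strains. TPS1 read 1328 ± 276 at 10 min and 1108 ± 279 at 0 min in GAL-NMD2. In nmd2D it read 1471 ± 377 at 10 min and 1102 ± 181 at 0 min (SD, n = 4 each). It was higher at 10 min in 8 of 8 pairs, as were 2.39% of all probe sets, but the mean change of 0.33 (SE 0.16) was not called (adjusted p = 1 in limma, 0.0637 with the replicate block). TPS1 then averaged 909 ± 215 at 60 min in GAL-NMD2 and 782 ± 181 at 60 min in nmd2D.

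TSL1 spread widely between arrays. Its signal at 60 min was 316.3, 348.9, 185.0 and 433.1 in GAL-NMD2, against 831.9, 396.5, 347.8 and 510.9 at 0 min. In nmd2D it was 199.2, 288.4, 177.6 and 368.8 at 60 min, against 802.0, 464.4, 337.1 and 894.7 at 0 min. The groups overlapped in both strains, although all 8 pairs were lower at 60 min, and replicate 3 was the lowest array in all 4 of these groups. The mean change at 60 min was -0.91 (SE 0.27, adjusted p = 0.0254 in limma, 1.86e-05 with the replicate block). In fits without a block, the call was lost when replicate 1 of either strain or replicate 4 of nmd2D was left out. It was also lost with arrays centred on their medians (adjusted p up to 0.112). The trehalase gene NTH1 changed least among the genes called, by -0.36 (SE 0.11, adjusted p = 0.0447 in limma) at 40 min and -0.42 (SE 0.11, adjusted p = 0.0128) at 60 min. The NTH1 call at 40 min was lost without any 1 of replicates 1, 3 and 4 of GAL-NMD2 or any 1 of the 4 replicates of nmd2D. It was also lost with median centring, where the change was -0.23 (adjusted p = 0.191, the highest over all settings tried), with quantile normalization and with only the groups compared in the fit, and the last also ended the call at 60 min (adjusted p = 0.0513).

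GSY1 and GLC3, both of glycogen synthesis, were on the lower side from the first time point on. GSY1, the gene of a glycogen synthase, was lower in 8 of 8 pairs at 10, 20, 40 and 60 min. So was GLC3, the gene of the branching enzyme. At 10 min 2 of the 10 genes did so, these same genes, and 2.96% of all probe sets did. The signal of GSY1 at 60 min was 290.6, 164.9, 134.5 and 417.3 in GAL-NMD2, against 722.4, 306.2, 384.8 and 539.6 at 0 min. In nmd2D it was 124.9, 88.9, 140.3 and 276.9 at 60 min, against 550.7, 290.1, 285.5 and 565.4 at 0 min. The 60 min arrays lay below the 0 min arrays in nmd2D, and the groups overlapped in GAL-NMD2. The mean change was -1.18 (SE 0.32, adjusted p = 0.0181 in limma) at 40 min and -1.17 (SE 0.32, adjusted p = 0.014) at 60 min. GSY1 lost its call at 60 min without replicate 1 of nmd2D (adjusted p = 0.0672), and at 40 min without replicate 1 or 3 of GAL-NMD2 or replicate 2 of nmd2D (adjusted p up to 0.0654). With the replicate block it was called from 20 min on (adjusted p = 0.000216 at 20 min). GLC3 changed by a mean of -1.18 at 60 min (SE 0.36, adjusted p = 0.0335 in limma). Without a block, the GLC3 call was lost in 7 of the 8 fits that left out 1 replicate of 1 strain. The exception was the fit without replicate 4 of GAL-NMD2. Median centring ended the call too (adjusted p up to 0.109 over these fits). With the replicate block GLC3 was called at 20, 40 and 60 min (adjusted p = 0.0147 at 20 min and 1.04e-06 at 60 min in limma).

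GPH1, the gene of glycogen phosphorylase, had higher group means at 10 min and lower ones at 60 min than at 0 min, in both strains. At 10 min its signal was 1560.3, 942.5, 825.5 and 866.8 in GAL-NMD2, against 1099.6, 571.5, 463.0 and 618.7 at 0 min. In nmd2D it was 902.5, 719.5, 958.4 and 944.1 at 10 min, against 1256, 515.8, 455.5 and 601.2 at 0 min. It was higher in 7 of 8 pairs, the exception being replicate 1 of nmd2D, whose 0 min array was the highest of its group. The mean change at 10 min was 0.52 (SE 0.19, adjusted p = 0.949 in limma), and with the replicate block GPH1 was called higher (adjusted p = 0.0116), where 0.674% of all probe sets were. At 60 min the mean of GPH1 was 389.5 ± 60.3 in GAL-NMD2, against 306 ± 60.6 in nmd2D (SD, n = 4 each). It was then lower in 8 of 8 pairs and had fallen by 0.90 on the log2 scale from 0 min (SE 0.19, adjusted p = 0.0023 in limma). In both strains the 60 min arrays lay below all 0 min arrays.

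GSY2, the gene of the other glycogen synthase, was the 1 gene of the 10 whose mean log2 level at 60 min was lower in GAL-NMD2 than in nmd2D. In GAL-NMD2 its group means were 307, 377, 274, 181 and 148 at 0, 10, 20, 40 and 60 min. In nmd2D they were 344, 433, 409, 343 and 272. At 60 min the arrays read 143.6, 209.0, 79.3 and 158.7 in GAL-NMD2, against 202.5, 310.1, 199.1 and 377.1 in nmd2D. Each GAL-NMD2 array was below the nmd2D array of the same number, while the highest GAL-NMD2 array exceeded the 2 lowest nmd2D arrays, so the groups overlapped. At 40 min they did not overlap, with 129.0 to 218.8 in GAL-NMD2 and 270.9 to 487.4 in nmd2D. The same held for 10.3% of all probe sets, lower in GAL-NMD2 at 40 min. The strain difference at 60 min was -0.83 (SE 0.27, 95% interval -1.38 to -0.29, adjusted p = 0.0347 in limma). GSY2 was the 1 gene of the 10 called lower at 60 min between strains, where 11.9% of all probe sets were called lower in GAL-NMD2. This call was lost with arrays centred on their medians (-0.57, adjusted p = 0.149) and with quantile normalization (-0.62, adjusted p = 0.172). It was also lost without any 1 of replicates 1, 3 and 4 of GAL-NMD2 or of replicates 2 and 4 of nmd2D, and with only the 2 groups compared in the fit.

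The change of GSY2 within GAL-NMD2 was -1.02 at 60 min (SE 0.27, adjusted p = 0.00819 in limma), and the groups did not overlap. Without replicate 1 of GAL-NMD2 this call was lost (adjusted p = 0.0536). In nmd2D the change was -0.35 (SE 0.27, adjusted p = 1). The difference between these changes, which is the test of whether the course depended on the strain, was -0.67 (SE 0.38, 95% interval -1.45 to 0.10, adjusted p = 0.647 in limma). It was not called with the replicate number as a block either (adjusted p = 0.124) and was called when each strain and number had a block of its own (adjusted p = 0.0379). At 40 min the difference was -0.69, with adjusted p of 0.703, 0.13 and 0.0397 in the same fits.

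The difference of changes between strains was called for 0 of the 10 genes at 10, 20, 40 and 60 min by limma without a block, and 0 of 10 had an unadjusted p under 0.05 at any of these times. Lower differences were called in 0%, 0.0135%, 1.5% and 3.91% of all probe sets at these times. With the replicate number as a block 0 of 10 were called, with 0, 0, 1 and 2 genes at an unadjusted p under 0.05, where lower differences were called in 0%, 0.0135%, 6.64% and 9.7% of all probe sets. The fit with a block per strain and number called GSY2 lower at 40 min, with 8.33% of all probe sets, and GSY2 lower and STL1 higher at 60 min, with 11.4% and 0.296% of all probe sets in these directions. The difference for STL1 at 60 min was 0.80 (SE 0.4, 95% interval 0.00 to 1.61), with an adjusted p of 0.478 in limma without a block and 0.0292 with a block per strain and number. For the other 8 genes the difference at 60 min lay between -0.02 and 0.52, and the widest 95% interval, that of GLC3, ran from -1.27 to 1.68.

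Each strain taken alone gave fewer calls without the block. In GAL-NMD2, 4 of 10 genes fell at 60 min, namely TPS2, GSY2, GPD1 and STL1, where 10.3% of all probe sets did. In nmd2D, 3 of 10 fell, namely TPS2, GPD1 and STL1, where 0.0809% of all probe sets did. Over 17 alternative settings, the calls lost most often were STL1 in GAL-NMD2 (lost under 8) and TPS2 in nmd2D (lost under 9). With the replicate block the counts were 9 in GAL-NMD2 and 8 in nmd2D, with 18.8% and 1.08% of all probe sets. The genes not called with the block were TPS1 in GAL-NMD2 and NTH1 and GSY2 in nmd2D. At 40 min, 2 of 10 fell in GAL-NMD2 and 2 of 10 in nmd2D, GPD1 and STL1 in each, with 8.21% and 0.0539% of all probe sets. With the block these counts were 8 and 6, with 16.1% and 0.58%. At 20 min the calls were GPD1 and STL1 in GAL-NMD2, where 0.31% of probe sets were called lower, and STL1 in nmd2D, where 0.0135% were. With the block they were 4 and 2 genes, with 3.1% and 0.216% of all probe sets. At 10 min 0 of 10 were called lower in either strain by limma, as were 0% of all probe sets. In each strain 1 gene had an unadjusted p under 0.05 in limma. In GAL-NMD2 this was GPH1, on the higher side (0.62), and in nmd2D STL1, on the lower side (-1.12). Leaving out 1 replicate changed these counts. In GAL-NMD2 the count at 60 min was 0 without replicate 1 and 2 without replicate 3 or 4, and that at 20 min was 0 without replicate 2 or 4 and 1 without replicate 3. In nmd2D the counts at 40 and 60 min were 1 each without any 1 of replicates 2, 3 and 4, and that at 20 min was 2 without replicate 1.

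Without a model, at 60 min the 4 arrays lay wholly below those at 0 min for 4 of 10 genes in GAL-NMD2 (TPS2, GPH1, GSY2 and GPD1), as for 11.3% of all probe sets. In nmd2D they did so for 6 of 10 genes (TPS2, NTH1, GPH1, GSY1, GPD1 and STL1), as for 1.36% of all probe sets. In the order of the 10 group means of each gene, every pair of neighbours overlapped in their array values, so the exact order is not resolved for any of the 10.

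Before galactose NTH1 was the 1 gene of the 10 whose arrays did not overlap between the strains. It read 546.9, 553.2, 663.2 and 484.7 in GAL-NMD2 at 0 min, against 437.9, 369.6, 480.5 and 443.4 in nmd2D. Non-overlapping groups were found for 0.283% of all probe sets with higher values in GAL-NMD2, and the gap for NTH1 was narrow, from 480.5 to 484.7. The difference was 0.36 (SE 0.16) and was not called (adjusted p = 1 in limma, 0.597 with the replicate block). In limma 0 of 10 genes were called at 0 min and 1, NTH1, had an unadjusted p under 0.05, where 0.0135% of all probe sets were called higher. At 10 min NTH1 read 614 ± 23.0 in GAL-NMD2, against 403 ± 51.1 in nmd2D, and at 60 min 419 ± 103 in GAL-NMD2, against 321 ± 33.1 in nmd2D (SD, n = 4 each). Its arrays did not overlap at 10 min (589.3 to 644.1 against 338.0 to 445.5) or at 20 min (448.1 to 618.8 against 346.7 to 413.5). This held for 0.539% and 1.17% of all probe sets, higher in GAL-NMD2. The NTH1 arrays overlapped at 40 min (356.5 to 557.6 against 231.6 to 376.2) and at 60 min (277.6 to 499.8 against 284.4 to 354.8). The strains were not compared by limma at 10 and 20 min. The difference at 60 min was 0.34 (SE 0.16, adjusted p = 0.206 in limma). With arrays centred on their medians it was 0.60 (adjusted p = 0.00515), with quantile normalization 0.46 (adjusted p = 0.043), and without replicate 1 of GAL-NMD2 0.52 (adjusted p = 0.0213). With centring GPD1 too was called higher in GAL-NMD2 at 60 min (0.71, adjusted p = 0.0477). Centring moved the median of all probe sets in this comparison to 0.21, where it was -0.05 as deposited. It also raised the number of all probe sets called higher, as given in the last section. In the fit with the replicate block GSY1 (0.60, adjusted p = 0.0361 in limma) and GPD1 (0.45, adjusted p = 0.0303) were called higher in GAL-NMD2 at 60 min, as were 2.1% of all probe sets.

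The spread between replicates had a pattern of its own. For GLC3, 82.2% of the sum of squares within groups lay between the 4 replicate numbers, for GSY1 79.3%, for TPS1 71.6% and for TSL1 71.4%. The median over all probe sets tested was 49.7%, and the quartiles were 31.3% and 66.8%. GLC3 was above its group mean in 9 of 10 arrays of replicate 1 and 10 of 10 of replicate 4, and in 0 of 10 of replicates 2 and 3. Its mean deviations were 0.55, -0.51, -0.70 and 0.65 on the log2 scale for replicates 1 to 4. STL1 had the lowest share of the 10 genes, 4.85%. The arrays of replicate 3, in which GLC3 and TSL1 were low, also had the highest actin ratios (2.26 to 2.95). In replicate 2, which had the lowest mean actin ratio of the 4 numbers (range 1.38 to 1.72), GLC3 was low too, and the mean deviation of GSY1 was -0.57, against -0.45 in replicate 3. The labels do not say what a replicate number shares, and the part of RNA integrity in this spread was not tested.

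**Figure D3:**
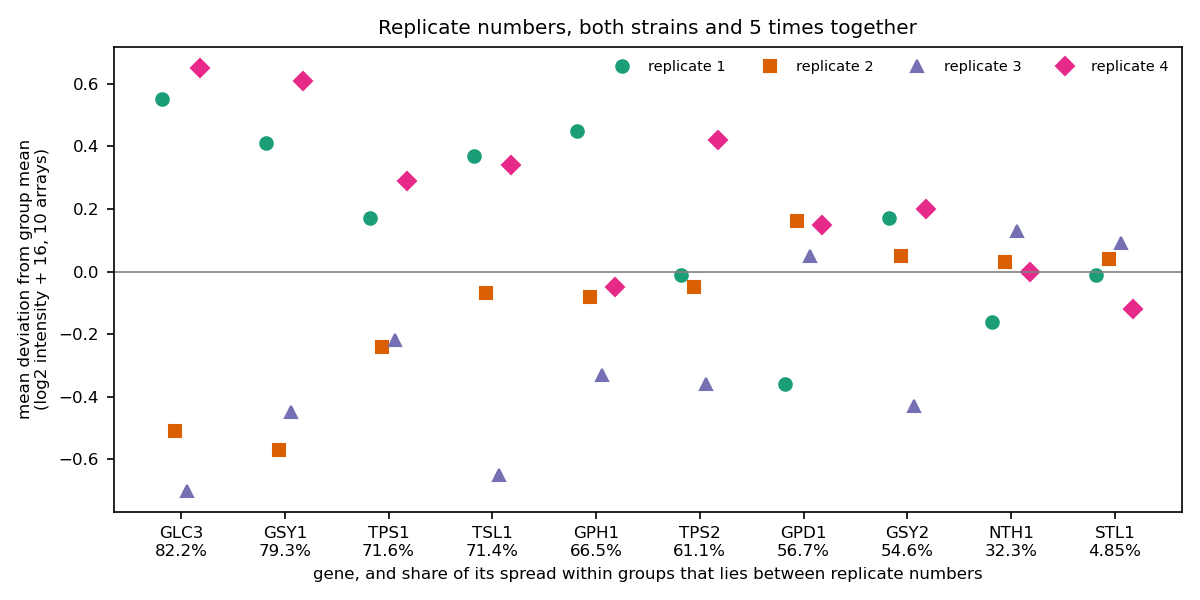
Mean deviation from the group mean (log2 of intensity + 16, y axis) for each replicate number over 10 arrays, for each of the 10 genes; the percentage under each name is the share of its spread within groups that lies between replicate numbers. GLC3 and GSY1 are high in replicates 1 and 4 and low in 2 and 3, whereas STL1 has no such pattern.

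Other genes of the same pathways had list medians closer to 0. Of 7 other trehalose and precursor genes, 2 fell at 60 min with the strains averaged, where 6.81% of all probe sets did, and the list median was -0.37. These were UGP1, whose enzyme makes UDP-glucose (-0.40, SE 0.12, adjusted p = 0.0365 in limma), and MAL11, a maltose permease that also carries trehalose (-0.95, SE 0.11, adjusted p = 4.84e-07). At 60 min MAL11 read 199.5 ± 21.4 in GAL-NMD2, against 774 ± 131 in nmd2D (SD, n = 4 each), and the change differed between strains by -1.69 (SE 0.23, adjusted p = 7.16e-06 in limma). Of 15 other glycogen genes, 3 fell, and the list median was -0.27. They were GLG1, a glycogenin that starts the glycogen chain (-0.72), and PIG1 (-0.31) and GIP2 (-0.61), which encode partners of the phosphatase Glc7. PIG1 read 96.3 ± 3.57 at 60 min, against 155 ± 21.8 at 0 min, in GAL-NMD2, and 152 ± 9.26 at 60 min, against 155 ± 20.7 at 0 min, in nmd2D (SD, n = 4 each). Its change differed between strains by -0.58 (SE 0.2, adjusted p = 0.102 in limma, 0.0391 with the replicate block). With the replicate number as a block 4 of the trehalose list and 7 of the glycogen list were called lower, where 16.6% of all probe sets were. In that fit PCL10, the gene of a Pho85 cyclin that acts on glycogen synthase, was called higher (0.54, adjusted p = 2.07e-05 in limma). So were 6.56% of all probe sets.

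Beside GPD1 and STL1 stood 14 other glycerol genes. Of the 14 tested at 60 min, 0 were called lower by limma, where 6.81% of all probe sets were, with a median of 0.00. An unadjusted p under 0.05 in either direction was found for 2. With the replicate block 1 of the 14 was called lower, where 16.6% of all probe sets were. It was GUT1, the gene of glycerol kinase (-0.32, adjusted p = 0.0479 in limma). GPD2, the gene of the second glycerol-phosphate dehydrogenase, had a change of 0.17 (SE 0.32, adjusted p = 0.857). GCY1, an aldo-keto reductase of glycerol breakdown that is known to be induced by galactose, rose by 1.11 (SE 0.13, adjusted p = 3.72e-07). It averaged 2350.2 ± 329.8 in GAL-NMD2 at 60 min, against 1007 ± 35 at 0 min, and 2177 ± 214 in nmd2D at 60 min, against 1076 ± 167 at 0 min (SD, n = 4 each). Of 20 genes of the Hog1 pathway, 1 fell, the transcription factor gene MSN1 (-0.42, adjusted p = 0.0293), and the median was -0.01. Of 19 genes of protein kinase A and Msn2/Msn4 signalling, 2 fell: CYR1, the gene of adenylate cyclase (-0.65, adjusted p = 5.08e-05), and TPK2, a catalytic subunit of the kinase (-0.56, adjusted p = 0.0175), and the median was -0.12. Both counts are near the 6.81% of all probe sets called lower in this comparison.

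**Figure D4:**
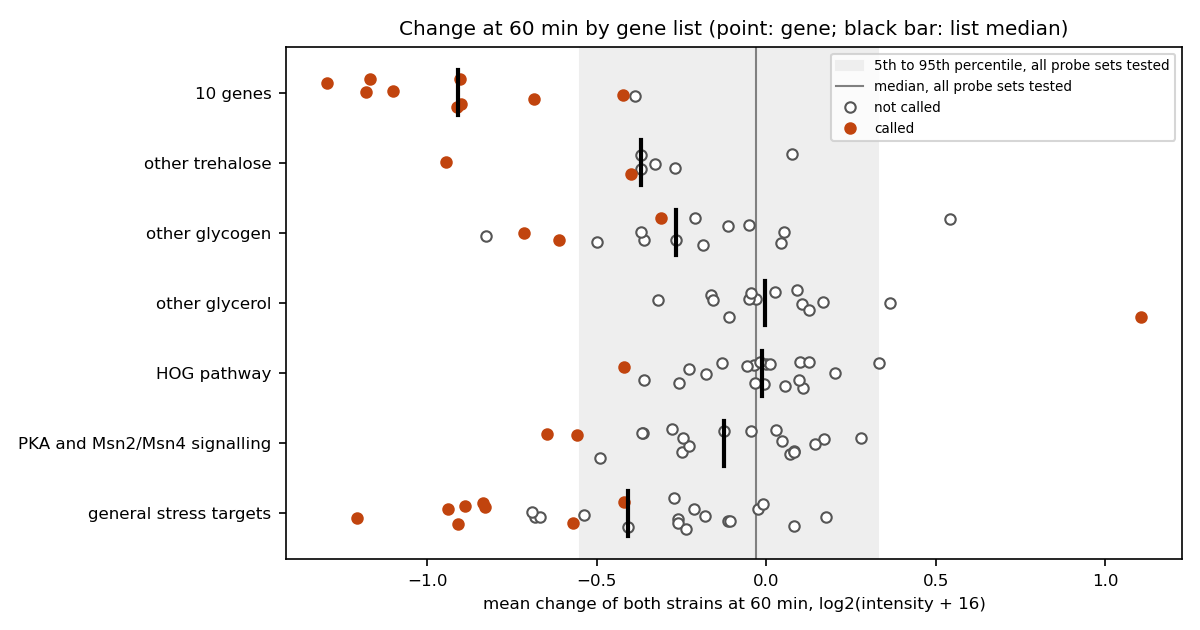
Mean change of both strains at 60 min (log2 of intensity + 16, x axis) of the 10 genes and of 6 lists of related genes. Each point is a gene, filled where called, and the black bar is the list median. The 10 genes have a median of -0.91 and the general stress targets one of -0.41, against -0.03 for all probe sets (grey band, 5th to 95th percentile, -0.55 to 0.33).

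General stress targets, 25 genes known to respond to Msn2 and Msn4 in many stresses, had a course with a rise first. At 10 min 5 of 25 rose and 0 fell with the strains averaged, where 0.202% of all probe sets were called higher, and the list median was 0.51. HSP12, a small membrane-associated stress protein gene, rose by 0.95 (SE 0.15, adjusted p = 0.000326 in limma) at 10 min and by 1.24 (SE 0.15, adjusted p = 1.36e-06) at 20 min. At 60 min 8 of 25 fell, where 6.81% of all probe sets did, and the median was -0.41. Among them were SOL4, the gene of a phosphogluconolactonase (-1.21, SE 0.23, adjusted p = 0.000703), and CTT1, the gene of cytosolic catalase (-0.91, SE 0.16, adjusted p = 0.000189), which had been higher by 0.77 at 10 min (SE 0.16, adjusted p = 0.014). HSP12 at 60 min had a change of 0.08 from 0 min (SE 0.15, adjusted p = 0.853). At 10 min TPS1, TSL1, GPH1 and GSY2 were on the positive side in both strains, and TPS2, GSY1, GLC3, GPD1 and STL1 on the negative side.

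The group means of TPS2 followed the mean course of the other 9 genes most closely (r = 0.95 over 10 group means), and those of NTH1 (0.55) and GSY2 (0.50) least. These correlations describe 10 points that share arrays with one another. Among 5356 other genes, the courses most like that of STL1 were SPO73 (r = 0.941), PCL8 (0.929) and TLG2 (0.916). Those most like GPD1 were INP51 (0.956), ATG7 (0.952) and VID30 (0.934), and those most like TPS2 were RGI1 (0.967), YJL163C (0.965) and YJL070C (0.946). The mean course of the 10 genes was most like MDG1 (0.976) and CYC7 (0.971).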

How the data were processed

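The deposited table holds 1 intensity per probe set and array for 9335 Affymetrix probe sets, 60 of them controls. Per the submitters' processing notes the intensities came from MAS5, with version and settings not given in the sources used here. Per the labels' protocols, RNA was extracted with hot phenol and labelled with biotin. The platform annotation gave 1 gene symbol for 6504 of the 9275 other probe sets, several for 328 and none for 2443. Locus names are those of the R64 gene table. The number of arrays limits the precision. Values were taken as log2(intensity + 16), probe sets with a mean under the 20th percentile were left out, and limma 3.58.1 in R 4.3.3 (lmFit, eBayes with trend) fitted the 10 group means over 40 arrays, which was tested on simulated data. Folds on this scale understate changes of dim probe sets. There were 18 comparisons: each strain's change from 0 min at 4 times, their mean, their difference (the interaction), and the strains at 0 and 60 min.

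The 10 genes, the lists of related genes and the tests were chosen with earlier results of these data known. Genes named beyond the 10 were the called members of a list or at most 4 of its largest changes at 60 min, and those of most similar course by Pearson correlation of group means (brightest probe set per gene). The series design calls the 4 replicates independent. Replicate numbers come from the labels. The deviations of same-numbered arrays from their group means correlated above 0.1 in 40 of 40 pairs compared (0.18 to 0.82). The numbers were therefore taken to pair the arrays. A fit with the number as a block stands beside part of the results it changes. Alternatives were that block, a block per strain and number, a pseudocount of 1, no filter, median centring, quantile normalization, no trend, only the groups compared, each replicate left out, and the replicate 2 array of GAL-NMD2 at 20 min left out. Coordinates, sequences and cross-hybridization are not analysed here.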

Additional observations from a re-analysis of the deposited data

Results flagged for a closer look

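In 4 of the 100 groups of 4 arrays (10 genes by 10 groups), 1 array lay so far from the other 3 that its gap to the nearest exceeded Dixon's 95% critical value for 4 values. Chance alone gives about 1 such group in 20.

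GPH1 read 1560.3 in replicate 1 of GAL-NMD2 at 10 min, against 825.5 to 942.5 in the other 3 arrays. At 20 min the same replicate number read 1169.4, against 578.3 to 675.6 in the others. GPD1 read 600.8 in replicate 1 of nmd2D at 60 min, against 1166.8 to 1230.7 in the others. STL1 read 25.6 in replicate 4 of GAL-NMD2 at 10 min, against 60.9 to 66.6 in the others. For none of the 10 genes did every replicate of one strain move one way and every replicate of the other strain the opposite way, and by limma without a block or with the replicate number as a block no difference between the strains' changes was called.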

How the results depend on the processing

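No change of the 10 genes turned its call to the opposite direction under any alternative run. STL1 at 20 and 40 min, GPD1 at 20, 40 and 60 min, TPS2 at 40 and 60 min, GPH1 at 60 min and STL1 at 60 min, all with the strains averaged, stayed called under all 17 settings. So did STL1 in nmd2D at 20 and 40 min and STL1 and GPD1 in GAL-NMD2 at 40 min. Every other call was lost under at least 1 setting. The count of genes called shifted under both kinds of block, under other scalings and in smaller fits, and the cause of each shift below was not tested. With the number as a block it was 2, 6 and 8 in nmd2D at 20, 40 and 60 min, 4, 8 and 9 in GAL-NMD2, 2, 5 and 10 for the strains averaged at 10, 20 and 40 min, and 3 between the strains at 60 min. With a block per strain and number it was 1, 3, 8 and 8 in nmd2D at 10, 20, 40 and 60 min, 5, 8 and 9 in GAL-NMD2 at 20, 40 and 60 min, 2, 5 and 10 for the strains averaged at 10, 20 and 40 min, and 1 and 2 for the interaction at 40 and 60 min. With median centring it was 1 in GAL-NMD2 at 20 and at 60 min and 2 between the strains at 60 min. With quantile normalization it was 2 in nmd2D at 20 min. Smaller shifts of the count are not all listed. With the strains averaged, median centring also ended the calls of NTH1 at 40 min and of TSL1 and GLC3 at 60 min. Fits of only the groups compared, which hold fewer arrays, gave 1 and 0 in nmd2D at 40 and 60 min. They gave 0 in GAL-NMD2 at 20 min and 0 between the strains at 60 min. These fits also ended the calls of NTH1 at 40 and 60 min with the strains averaged, and of STL1 in GAL-NMD2 at 60 min.

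With 1 replicate of 1 strain left out, the count ran from 1 to 2, 1 to 3 and 1 to 4 in nmd2D at 20, 40 and 60 min, and from 0 to 2, 2 to 2 and 0 to 5 in GAL-NMD2. It ran from 2 to 2, 3 to 5 and 5 to 9 for the strains averaged, and from 0 to 1 between the strains at 60 min. All others ran from 0 to 0.

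Over all probe sets, centring moved the split of calls at 60 min to 304 lower and 284 higher for the strains averaged, against 505 and 163 as deposited, and to 467 and 440 between the strains, against 885 and 32. It also moved the median change of all probe sets in GAL-NMD2 at 60 min to 0.14, against -0.02. The 10 genes stayed lower at 60 min with the strains averaged under every scaling. The low signal of STL1 limits how far its fall can be measured.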
